A study of Mus musculus with 12 samples.

Results

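Superoxide dismutases, catalase, glutathione peroxidases and peroxiredoxins were followed in RNA-seq libraries of mouse embryonic fibroblast (MEF) cells that expressed a mutant of IDH2 or were treated with 2-hydroxyglutarate (2-HG). The group holds 10 of the 46763 names in the RPM tables, which are Sod1, Sod2, Sod3, Cat, Gpx1, Gpx3, Gpx4, Prdx1, Prdx2 and Prdx6. They were found by their symbols, and the group was chosen by their RPM in both comparisons, in that it was put together with the changes in 2MUT and with 2-HG known. Sod3 and Gpx3 encode the 2 extracellular enzymes, and the other 8 genes encode enzymes that act inside the cell. All 10 were listed in the table of the 2MUT experiment and 8 in that of the 2-HG experiment, where Gpx4 and Prdx1 were not analysed.

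The MEF cells came from C57BL/6 embryos at embryonic day 13.5 and had been immortalized spontaneously by passaging. 2MUT cells stably expressed a FLAG-tagged, cancer-associated arginine-to-serine mutant of human IDH2 delivered by retrovirus with puromycin selection, and Control cells received the empty vector. These 2 groups were not treated. 2-HG(+) cells were exposed to a membrane-permeant 2-HG at 300 μM for 24 h, and 2-HG(-) cells are labelled as given the solvent DMSO for 24 h, whereas the study describes them as non-treated. Each of the 4 groups had 3 libraries. Nothing in the labels says that the 3 libraries came from separate cell lines, so p-values measure the spread between these libraries, which may be technical, and in bulk RNA fewer cells that express a gene and less RNA per cell cannot be told apart.

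Superoxide is a by-product of respiration and of several oxidases. Superoxide dismutases turn it into hydrogen peroxide and oxygen, and catalase, glutathione peroxidases and peroxiredoxins then reduce or split the hydrogen peroxide. Each compartment has its own enzymes, since superoxide crosses membranes poorly: SOD1 works in the cytosol, SOD2 in the mitochondrial matrix and SOD3 outside the cell, where it binds to heparan sulfate of the matrix.

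Values are RPM, a gene's share of the reads counted in a library, in reads per 1000000, from AmpliSeq libraries in which 1 short target of a transcript is amplified. Levels of different genes are therefore not compared with each other. Depth was 6472439 to 7313602 reads per library in the 2MUT experiment and 14959318 to 18363768 in the 2-HG experiment. Taken as a floor, 3 reads stood for 0.41 to 0.464 RPM and 0.163 to 0.201 RPM, respectively. All 8 fibroblast markers exceeded 1 RPM on average in every group, and their summed level was lower in the treated or mutant cells (11613 to 12681 RPM in Control, 7909 to 8515 in 2MUT, 20204 to 21728 in 2-HG(-) and 13736 to 14970 in 2-HG(+)). The sum is carried by Col1a1, Col1a2 and Vim, and single markers went the other way, with Pdgfra at 372 RPM in Control and 458 in 2MUT and Thy1 at 2.76 RPM in 2-HG(-) and 5.23 in 2-HG(+). The part of these levels in the changes of the enzymes was not tested. Epithelial and erythroid markers were under 1 RPM throughout. The summed level of 4 adipocyte markers was 55.4 to 61.7 RPM in Control, 43.6 to 53.4 in 2MUT, 5.55 to 8.82 in 2-HG(-) and 2.51 to 3.25 in 2-HG(+), nearly all of it Fabp4, with Adipoq and Plin1 under 1 RPM. That of 4 leukocyte markers, mostly Cd68 and with Ptprc under 1 RPM, was 7.57 to 14.6 RPM over all libraries, that of muscle at most 4.05 and that of endothelium at most 2.94 RPM. Each library correlated better with its own group than with the other group of its table. Mouse Idh2 was at 77.3 ± 5.54 RPM (SD, n = 3) in Control and 49.6 ± 6.39 in 2MUT, a change of -0.63 (limma adjusted p = 0.003) that was not read as a check of the human transgene. With 2-HG it was at 238 ± 19.2 RPM against 177 ± 14.3 in 2-HG(-), a change of 0.43 (limma adjusted p = 0.011) that did not pass without 2-HG(-) replicate 3 (0.36) or 2-HG(+) replicate 2 (0.38), without a filter (adjusted p = 0.065) or in the unmoderated test (adjusted p = 0.051).

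GPX1, GPX3 and GPX4 carry selenocysteine in their active site, which is encoded by a TGA codon inside the reading frame. The 51 coding bases around that codon are given with the TGA in capitals, since it ties these enzymes to the selenium genes described further on. The codon is number 47 of Gpx1 (chr9:108339451-108339453, GRCm38, plus strand), number 73 of Gpx3 (chr11:54907256-54907258) and number 73 of Gpx4 (chr10:80054737-80054739).
Gpx1: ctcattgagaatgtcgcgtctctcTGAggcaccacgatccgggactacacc
Gpx3: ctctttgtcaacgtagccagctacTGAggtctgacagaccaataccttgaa
Gpx4: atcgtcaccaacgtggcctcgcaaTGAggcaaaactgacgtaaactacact

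Sod3, the gene of the extracellular dismutase, was changed most. It lies on chr5:52363791-52371418 (GRCm38, plus strand), has 2 exons and shares no run of 50 bases with another annotated transcript. It was at 49.4, 60.7 and 56.1 RPM in Control and at 282, 263 and 226 RPM in 2MUT. Every 2MUT library was far above every Control library, and the means were 55.4 ± 5.66 and 257 ± 28.6 RPM (SD, n = 3), 4.65-fold higher in 2MUT. In the 2-HG experiment the order was the opposite, with 183, 166 and 178 RPM in 2-HG(-) and 15.4, 13.6 and 14.5 RPM in 2-HG(+). The means of 176 ± 8.44 and 14.5 ± 0.877 RPM (SD, n = 3) were 12.1-fold apart, so that 8.27% of the 2-HG(-) level was left after 24 h.

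On the scale of log2(RPM + 1), the rise of Sod3 in 2MUT was 2.19 (SE 0.12, limma adjusted p = 5.2e-07) and its fall with 2-HG was -3.51 (SE 0.10, limma adjusted p = 2.2e-07). In 2MUT, 23 of 11065 genes tested rose more. With 2-HG, 4 of 10384 fell more. The change in 2MUT minus the change with 2-HG came to 5.70 (SE 0.16, limma adjusted p = 4.4e-11), which was the largest such difference in size among the 9594 genes tested in both comparisons. Adjusted p-values here and below come from fits over all genes tested, and as the genes were picked with these changes known, they describe the changes and are not independent evidence of them. The control groups of the experiments were at 55.4 RPM (Control, with the empty vector) and 176 RPM (2-HG(-), without it). These cells are unlike and their tables were made separately, so the levels were not compared by a test.

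**Figure D1:**
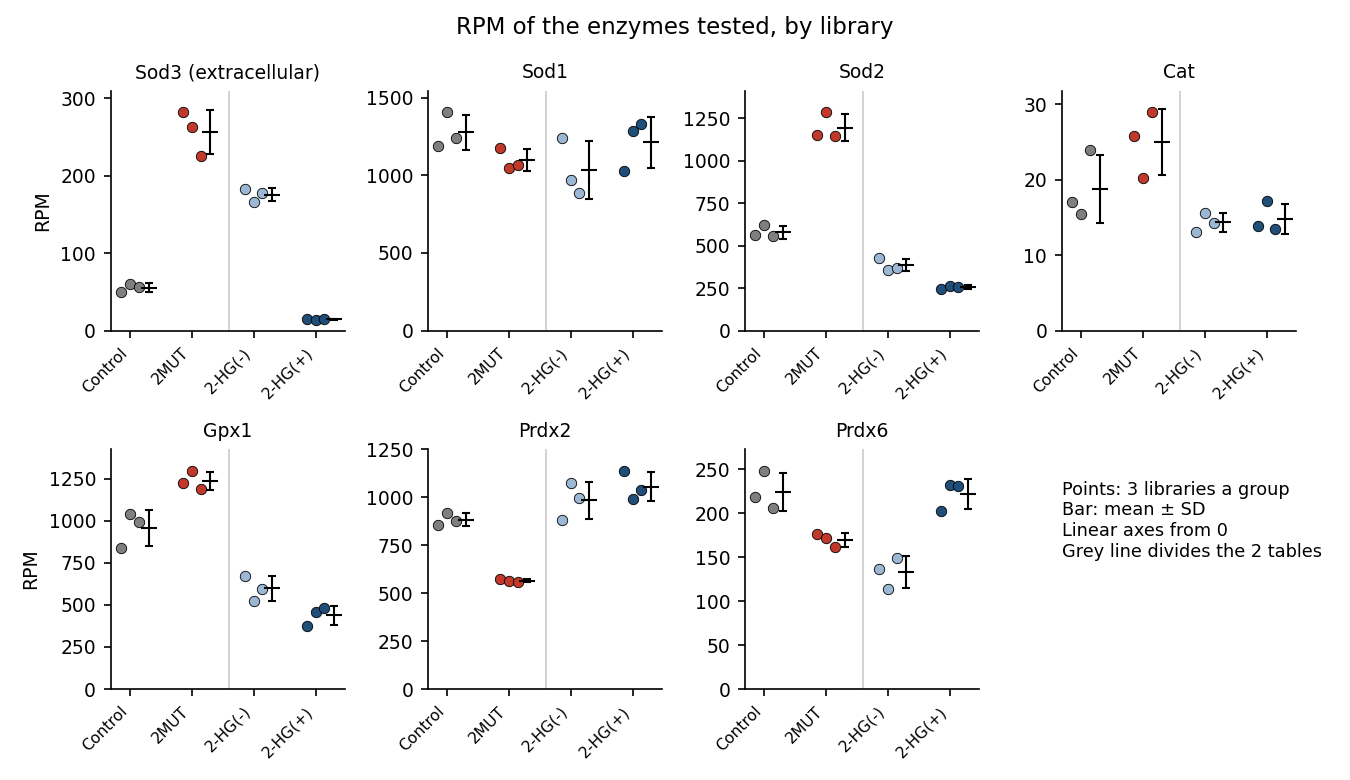
RPM of the 7 enzymes tested, on linear axes from 0, in the 3 libraries of each group (points) with the mean and SD (bars), the 2MUT experiment left and the 2-HG experiment right of the grey line. Sod3 is at 226 RPM or more in every 2MUT library against 60.7 or less in Control, and at 15.4 or less in every 2-HG(+) library against 166 or more in 2-HG(-).

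The genes nearest to Sod3 in the plane of both changes were sought among 6680 genes tested in both comparisons with at least 10 RPM on average in both control groups. The nearest was Saa3, an acute phase protein of the serum amyloid A family, with a change of 2.15 in 2MUT and -2.32 with 2-HG (log2(RPM + 1), distance 1.19). Sfrp1, a secreted antagonist of Wnt signalling, followed with 1.53 and -2.32 (distance 1.36). Agt, the precursor of angiotensin, had 0.58 and -3.18 (distance 1.64), and its call in 2MUT was lost without 2MUT replicate 2 (0.51, limma adjusted p = 0.071). Cxcl5, a chemokine, had 1.73 and -1.89 (distance 1.68), and Gdpd2 had 0.66 and -2.57 (distance 1.80). In the unmoderated test the 2MUT calls of Agt (adjusted p = 0.058) and Gdpd2 (adjusted p = 0.075) were lost. None of the 5 had a change as large as that of Sod3 in either comparison.

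Sod2 encodes the manganese dismutase of mitochondria and lies on chr17:13006846-13040063 (plus strand, 5 exons). It was at 559.9, 623 and 554 RPM in Control and at 1151, 1284 and 1144 RPM in 2MUT. With 2-HG it was at 243, 264 and 257 RPM, against 427, 359 and 371 RPM in 2-HG(-). Neither pair of groups overlapped, as was so for 47.5% of all genes tested in 2MUT and 46.3% with 2-HG, and the mean was 2.06-fold higher in 2MUT (579 ± 38.2 to 1193 ± 79 RPM, SD, n = 3) and 1.51-fold lower with 2-HG (386 ± 36.4 to 255 ± 10.7 RPM). The changes were 1.04 (SE 0.09, limma adjusted p = 1.2e-05) and -0.59 (SE 0.10, limma adjusted p = 0.0016), and their difference was 1.64 (SE 0.13, limma adjusted p = 6.5e-07).

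Sod1, the gene of the cytosolic copper and zinc dismutase on chr16:90220754-90226329 (plus strand, 5 exons), was measured at 1186, 1406 and 1239 RPM in Control and at 1179, 1047 and 1064 RPM in 2MUT. The highest 2MUT library lay only 7.55 RPM under the lowest Control library. The change of -0.22 (SE 0.09) did not pass the threshold (limma adjusted p = 0.094), although it did without the filter on low genes (limma adjusted p = 0.033). In the 2-HG experiment the groups overlapped, with 1242, 967 and 889 RPM in 2-HG(-) and 1025, 1284 and 1332 RPM in 2-HG(+), a change of 0.24 (SE 0.15, limma adjusted p = 0.25). The difference between the changes, -0.46 (SE 0.19, limma adjusted p = 0.07), passed only without 2-HG(-) replicate 1 (-0.60, adjusted p = 0.016) or without 2-HG(+) replicate 1 (-0.57, adjusted p = 0.025). Of the 50-base windows of the Sod1 transcript, 23.1% occur in the pseudogene Gm8566, and the gene overlaps Scaf4 on the other strand, so part of its reads may be uncertain.

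Catalase, the heme enzyme of peroxisomes that splits hydrogen peroxide, is encoded by Cat on chr2:103453849-103485160 (minus strand, 13 exons). Its transcript was at 17, 15.4 and 23.9 RPM in Control, 25.8, 20.2 and 28.9 in 2MUT, 13.1, 15.6 and 14.3 in 2-HG(-) and 13.8, 17.1 and 13.5 in 2-HG(+). The groups overlapped in both experiments. The changes were 0.40 (SE 0.19, limma adjusted p = 0.13) and 0.04 (SE 0.14, limma adjusted p = 0.85). Without Control replicate 3, the highest of the Control libraries, the change in 2MUT was 0.58 and passed (limma adjusted p = 0.025).

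Gpx1, on chr9:108338903-108340343 (plus strand, 2 exons), encodes the main glutathione peroxidase of cytosol and mitochondria. It was at 835, 1038 and 993 RPM in Control and at 1223, 1296 and 1187 RPM in 2MUT, with no overlap. In 2-HG(-) it was at 673, 525 and 596 RPM and in 2-HG(+) at 376, 456 and 482 RPM, again with no overlap but in the opposite order. The mean was 1.29-fold higher in 2MUT (955 ± 106 to 1235 ± 56 RPM, SD, n = 3) and 1.37-fold lower with 2-HG (598 ± 74 to 438 ± 54.8 RPM). Both changes passed, 0.38 (SE 0.10, limma adjusted p = 0.012) and -0.45 (SE 0.13, limma adjusted p = 0.023), but neither held throughout. The rise was lost without 2MUT replicate 2 (0.34, adjusted p = 0.057), and the fall without 2-HG(-) replicate 1 (-0.36, adjusted p = 0.082), 2-HG(-) replicate 3 (-0.45, adjusted p = 0.073) or 2-HG(+) replicate 1 (-0.34, adjusted p = 0.06). The difference between them, 0.83 (SE 0.17, limma adjusted p = 0.0018), passed with each of the 12 libraries left out in turn.

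Gpx3, on chr11:54902453-54910377 (plus strand), encodes the secreted glutathione peroxidase of plasma. It was all but undetected, with 1 read in each Control library and 5, 1 and 5 reads in 2MUT. The 2-HG(-) libraries had 4, 2 and 2 reads and the 2-HG(+) libraries 1, 3 and 1. The highest of these values, 0.773 RPM, had an exact binomial 95% interval of 0.251 to 1.8 RPM, which covers counting error only. A difference between groups was not tested. With Gpx3 below the filter of 1 RPM, Sod3 was the only extracellular enzyme tested, and no comparison of extracellular with intracellular enzymes as classes could be made.

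The 6 intracellular enzymes tested changed by -0.64 to 1.04 in 2MUT and by -0.59 to 0.74 with 2-HG, beside 2.19 and -3.51 for Sod3 (log2(RPM + 1)). Gpx4, whose product reduces lipid peroxides in membranes, was listed at 0 in all 6 libraries of the 2MUT experiment. Prdx1, a cytosolic peroxiredoxin, was listed at 0 in 5 of them and had 3 reads in 2MUT replicate 1. Both belong to 22835 names listed in the 2MUT table alone, of which 87% were at 0 in all 6 libraries, compared with 23.6% of names listed in both tables. Genes that every cell uses were also near 0 there, such as Gapdh at 1.02 to 3.28 RPM and the ribosomal protein gene Rps6 at 0.142 to 0.586 RPM (chosen after their values were seen), so the entries of Gpx4 and Prdx1 are not read as absent transcripts.

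Peroxiredoxins reduce hydrogen peroxide with a reactive cysteine and are recharged by thioredoxin or, for PRDX6, by glutathione. Prdx2, the cytosolic enzyme best known from red blood cells, lies on chr8:84969587-84974834 (plus strand, 6 exons). It was at 855, 919.9 and 874 RPM in Control and at 572, 565 and 559 RPM in 2MUT. These libraries did not overlap, and the mean was 1.56-fold lower in 2MUT (883 ± 33.4 to 565 ± 6.23 RPM, SD, n = 3), a change of -0.64 (SE 0.08, limma adjusted p = 1.5e-04). In the 2-HG experiment, 883, 1074 and 993 RPM in 2-HG(-) overlapped with 1137, 991 and 1037 RPM in 2-HG(+), and the change was 0.10 (SE 0.11, limma adjusted p = 0.5). The changes differed by -0.75 (SE 0.13, limma adjusted p = 4.9e-04). The gene overlaps Rnaseh2a and Junb on the other strand, and 8.96% of its 50-base windows occur in Tdpx-ps1 or Prdx2-rs3.

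Prdx6, on chr1:161240112-161251219 (minus strand, 5 exons), encodes a peroxiredoxin with a single reactive cysteine that also acts on phospholipids. Its values were 218, 248 and 206 RPM in Control and 176, 172 and 161 RPM in 2MUT. The order was reversed with 2-HG, from 136, 114 and 149 RPM in 2-HG(-) to 202, 232 and 231 RPM in 2-HG(+). No groups overlapped within an experiment, and the mean was 1.32-fold lower in 2MUT (224 ± 21.8 to 169.6 ± 7.91 RPM, SD, n = 3) and 1.67-fold higher with 2-HG (133 ± 17.3 to 221 ± 16.9 RPM). The changes were -0.40 (SE 0.10, limma adjusted p = 0.011) and 0.74 (SE 0.12, limma adjusted p = 0.0013), with a difference of -1.13 (SE 0.16, limma adjusted p = 8.0e-05). The fall in 2MUT did not pass without 2MUT replicate 3 (-0.36, adjusted p = 0.05).

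**Figure D2:**
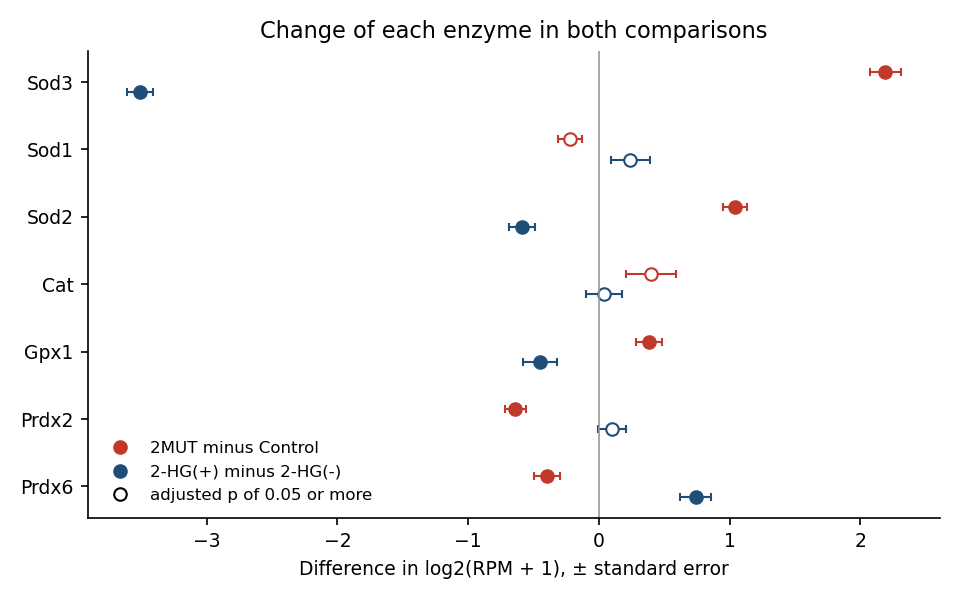
Change of the 7 enzymes tested in log2(RPM + 1), with its standard error as bars, for 2MUT minus Control (red) and 2-HG(+) minus 2-HG(-) (blue). Filled points passed an adjusted p of 0.05. Sod2, Sod3, Gpx1 and Prdx6 are filled in both comparisons and lie on opposite sides of 0. Of the 9594 genes tested in both, 9.38% passed in opposite directions.

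Of the 7 enzymes tested, 3 were higher in 2MUT (Sod2, Sod3, Gpx1) and 2 lower (Prdx2, Prdx6), beside 16.5% and 17.3% of all genes tested, or 33.8% in either direction. With 2-HG, 1 was higher (Prdx6) and 3 lower (Sod2, Sod3, Gpx1), beside 16.1% and 16.7% of all genes, or 32.8% in either direction. The median change of the 7 was 0.38 in 2MUT and 0.04 with 2-HG, against 0.01 and -0.02 over all genes. Both comparisons were passed by 4 enzymes, all in opposite directions, 3 up in 2MUT and down with 2-HG and 1 the other way. Over all 9594 genes tested in both, 4.2% passed the first way, 5.18% the second way and 9.38% in opposite directions in total. Since the enzymes were chosen with these changes known, nothing is read from the comparison of these shares. The difference of the changes passed for 5 of the 7 enzymes, 3 with a larger and 2 with a smaller value in 2MUT, and for 39.4% of all genes, 19.9% larger and 19.5% smaller.

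**Figure D3:**
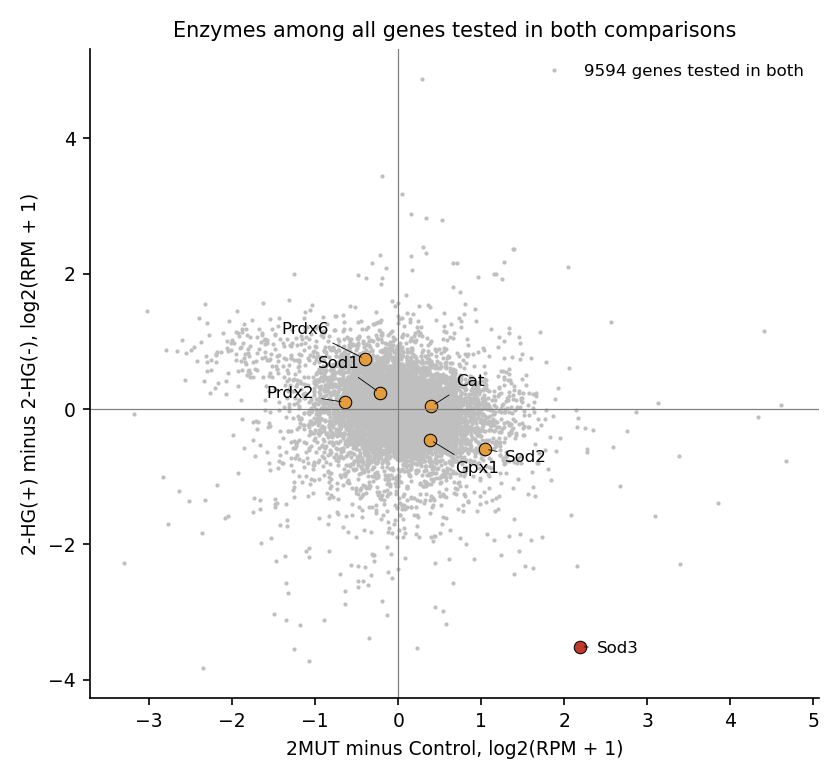
Change in 2MUT (horizontal) against change with 2-HG (vertical), both in log2(RPM + 1), for 9594 genes tested in both comparisons (grey), with the intracellular enzymes in orange and Sod3 in red. Sod3 stands alone in the lower right corner at 2.19 and -3.51, while the 6 others lie within or at the edge of the cloud.

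Promoters were available for 8 of the 10 genes. Those of Sod2 and Gpx1 are shown because these genes moved in the same directions in both comparisons. They are the 250 bases before the gene start that RefSeq gives (GRCm38.p6), chr17:13007589-13007838 for Sod2 and chr9:108338830-108339079 for Gpx1, both on the plus strand. GENCODE M21 sets the start of both genes further upstream, so that the Sod2 window lies wholly, and the Gpx1 window in part, within the gene spans given above. In the Sod2 promoter, capitals mark the Sp1 motif GGGCGG, and in that of Gpx1 the hypoxia response core ACGTG.
Sod2: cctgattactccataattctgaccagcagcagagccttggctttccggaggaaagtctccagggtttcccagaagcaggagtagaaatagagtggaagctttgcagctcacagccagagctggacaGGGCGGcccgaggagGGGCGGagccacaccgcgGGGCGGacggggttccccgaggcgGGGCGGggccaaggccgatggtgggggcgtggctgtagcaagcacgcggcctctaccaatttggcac
Gpx1: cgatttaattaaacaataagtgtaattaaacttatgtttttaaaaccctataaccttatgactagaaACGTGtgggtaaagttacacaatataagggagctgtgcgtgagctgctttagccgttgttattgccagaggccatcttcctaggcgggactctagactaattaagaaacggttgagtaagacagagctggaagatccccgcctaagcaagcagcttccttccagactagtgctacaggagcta

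Both strands of these windows were searched for 5 motifs. GGGCGG occurred 4 times in the Sod2 window and not in that of Gpx1, and 33% of 32544 mouse promoters of that length hold it. ACGTG, which overlaps none of the other motifs found, occurred once in the Gpx1 window and not in that of Sod2, with a share of 16.6% of all promoters. The antioxidant response core TGACNNNGC (10.2% of promoters), the FOXO motif TGTTTAC (3.17%) and the NF-kB motif (0.141%) were found in neither window. Sod2 and Gpx1 thus had no motif of the 5 in common. These are matches of letters and say nothing of binding.

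Among the other peroxiredoxins and glutathione peroxidases, 5 of 9 genes were tested in 2MUT, and 0 were higher and 3 lower (median -0.47, against 0.01 over all genes, of which 16.5% were higher and 17.3% lower). Prdx5, a peroxiredoxin of mitochondria, peroxisomes and cytosol, fell from 309.7, 283 and 269 RPM to 188, 213 and 219 RPM, a change of -0.47 (SE 0.10, limma adjusted p = 0.0041) that passed with each library left out. Gpx8 changed by -0.42 (limma adjusted p = 0.022) and Prdx4, a peroxiredoxin of the endoplasmic reticulum, by -0.74 (limma adjusted p = 0.031). Prdx4 was near the filter of 1 RPM, at 2.37, 3.56 and 2.73 RPM in Control and 1.24, 1.17 and 1.51 RPM in 2MUT. Gpx8 did not pass without Control replicate 1 (-0.32, adjusted p = 0.067) or 2MUT replicate 2 (-0.34, adjusted p = 0.097), and Prdx4 not without Control replicate 2 (-0.62), Control replicate 3 (-0.77) or any of 2MUT replicates 1, 2 and 3 (-0.72, -0.70 and -0.81). Prdx4 also did not pass by DESeq2 (adjusted p = 0.09) or with a replicate block (adjusted p = 0.051), nor Gpx8 in the unmoderated test (adjusted p = 0.1). Prdx6b, a copy of Prdx6 at 2.34 to 14.7 RPM, changed by -0.96 and did not pass with all libraries (limma adjusted p = 0.05). It passed without Control replicate 3 (-1.22, adjusted p = 0.0085) or without 2MUT replicate 1 (-1.28, adjusted p = 0.02), and by edgeR (adjusted p = 0.049) and DESeq2 (adjusted p = 0.02). With 2-HG, 4 genes were tested, and 0 passed by limma in either direction (median 0.14), beside 32.8% of all genes (median -0.02). The count was also 0 at an unadjusted p under 0.05 and by edgeR and DESeq2, as it was for rises of this list in 2MUT. Prdx5 passed as lower with 2-HG (-0.18) without a filter (adjusted p = 0.048) and in the unmoderated test (adjusted p = 0.036). Gpx2, Gpx5, Gpx6 and Gpx7 were under the filter. Of 5 heme peroxidases only Pxdn was tested, an enzyme that crosslinks collagen IV, and it fell with 2-HG from 145, 155 and 138 RPM to 102, 97.5 and 107 RPM (-0.51, SE 0.09, limma adjusted p = 0.0027).

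Thioredoxin and glutathione recycling recharges the peroxidases, and 14 of 16 genes of this list were tested. In 2MUT 7 were higher and 1 lower (median 0.33), beside 16.5% and 17.3% of all genes, but only 3 of the rises passed with each library left out. These were Sesn2, a stress-induced sestrin, at 1.20 (SE 0.22, limma adjusted p = 0.0016), Gsr, glutathione reductase, at 0.63 (SE 0.14, limma adjusted p = 0.0055) and Glrx2, mitochondrial glutaredoxin, at 0.48 (SE 0.11, limma adjusted p = 0.0064). The rises of Srxn1 (0.96), Sesn1 (0.43), Sesn3 (0.66) and Glrx (0.31) did not. Without Control replicate 1 the changes were 0.64 for Srxn1, 0.32 for Sesn1 and 0.46 for Sesn3, and without 2MUT replicate 2 they were 0.82, 0.44 and 0.60 and that of Glrx 0.27. Sesn1 was also lost without Control replicate 3 (0.41), 2MUT replicate 1 (0.42) or 2MUT replicate 3 (0.44), Sesn3 without 2MUT replicate 1 (0.66), and Glrx without Control replicate 2 (0.22) or 2MUT replicate 3 (0.28). Txn1, cytosolic thioredoxin, fell by 0.43 (SE 0.10, limma adjusted p = 0.0061), which did not pass in the unmoderated test (adjusted p = 0.061).

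With 2-HG, 5 genes of this list were higher and 5 lower (median 0.13), beside 16.1% and 16.7% of all genes. These 10 passed with each library left out, but 6 of them did not without a filter on low genes: Txn2 (adjusted p = 0.077), Txnip (0.058), Srxn1 (0.11), Sesn2 (0.076), Sesn3 (0.076) and Nxn (0.15). All of these but Txnip also missed the threshold in the unmoderated test (adjusted p = 0.058 to 0.1). Gsr rose from 23.6, 18.4 and 21 RPM to 35.6, 46.4 and 53.5 RPM (1.06, SE 0.16, limma adjusted p = 0.001). Srxn1, the sulfiredoxin that repairs overoxidized peroxiredoxins, rose by 0.85, Txnrd1, thioredoxin reductase, by 0.64, Sesn2 by 0.91 and Txn2 by 0.44. Txnip, the inhibitor of thioredoxin, fell from 235, 203 and 156 RPM to 59.3, 86.8 and 98 RPM (-1.28, SE 0.20, limma adjusted p = 0.0011). Sesn1 (-0.94), Sesn3 (-0.77), Glrx (-0.91) and Nxn (-0.84) were the other falls. Sesn2, Gsr and Srxn1 thus passed as higher in both comparisons, and Sesn1, Sesn3 and Glrx as higher in 2MUT and lower with 2-HG. Over all 9594 genes tested in both, 13.9% passed in both comparisons, and 9.38% passed in opposite directions. In the unmoderated test, the 2MUT calls of Sesn2 (adjusted p = 0.064), Gsr (0.055) and Srxn1 (0.15) were lost. So were those of Sesn1 and Sesn3 (0.12 for each) and Glrx (0.15) in 2MUT, and of Sesn2 (0.058) and Srxn1 (0.078) with 2-HG.

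Copper reaches SOD1 through the chaperone Ccs, and reaches secreted SOD3 through the chaperone Atox1 and the pump Atp7a of the Golgi. Ccs did not pass in either comparison (-0.23, adjusted p = 0.16, and 0.09, adjusted p = 0.65, limma). Atox1 was at 94.3, 158 and 133 RPM in Control and at 254, 293 and 261 RPM in 2MUT, a rise of 1.09 (SE 0.16, limma adjusted p = 4.3e-04), and its groups overlapped in the 2-HG experiment (-0.17, limma adjusted p = 0.44). Atp7a changed by 0.35 in 2MUT (limma adjusted p = 0.027), which did not pass without Control replicate 1 (0.32), Control replicate 2 (0.31), 2MUT replicate 1 (0.36) or 2MUT replicate 3 (0.27). It fell with 2-HG from 114, 108 and 121 RPM to 87.6, 84.1 and 83.5 RPM (-0.42, SE 0.09, limma adjusted p = 0.0069).

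The list of copper and manganese supply had 4 higher and 1 lower of 8 genes tested in 2MUT (median 0.25), and 1 higher and 2 lower of 7 with 2-HG (median 0.04). Over all genes, 33.8% passed in either direction in 2MUT and 32.8% with 2-HG, and the count with 2-HG was near that share. The pump gene Atp7b rose in 2MUT (1.31, limma adjusted p = 4.1e-04), and the copper importer Slc31a1 fell (-0.49, limma adjusted p = 0.0015). Slc39a8, which imports manganese and zinc, rose with 2-HG (0.72, limma adjusted p = 0.0039). The call of Slc39a14 in 2MUT (0.87) was lost without Control replicate 1 (0.63), 2MUT replicate 1 or 2MUT replicate 2 (0.79 in both cases). That of Slc31a2 with 2-HG (-0.58) was lost without 2-HG(-) replicate 1 (-0.52, limma adjusted p = 0.052).

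Genes of selenoprotein synthesis, which GPX1 needs for its selenocysteine at the TGA codon shown above, had 1 higher and 0 lower of 8 tested in 2MUT (median -0.06), and 4 higher and 1 lower with 2-HG (median 0.26), beside 33.8% and 32.8% of all genes in either direction. The 0 falls by limma in 2MUT were also 0 at an unadjusted p under 0.05 and by edgeR and DESeq2. Sephs1, a relative of selenophosphate synthetase, rose in 2MUT (0.59, limma adjusted p = 9.8e-04). Sephs2, which makes the selenium donor, rose with 2-HG by 0.54 (limma adjusted p = 0.0055), and Pstk, the kinase of the selenocysteine tRNA, by 0.73 (limma adjusted p = 0.0062), the latter not without a filter (adjusted p = 0.094) or in the unmoderated test (adjusted p = 0.07). Eefsec (0.40) and Trnau1ap (0.41) passed with 2-HG but not without 2-HG(-) replicate 3 (0.40 and 0.38) or 2-HG(+) replicate 2 (0.45 and 0.38), and Eefsec also not without 2-HG(-) replicate 1 (0.35) or 2-HG(+) replicate 3 (0.32). Sepp1, the gene of secreted selenoprotein P, fell from 399.6, 474 and 403 RPM to 105, 48.8 and 107 RPM (-2.36, SE 0.26, limma adjusted p = 1.4e-04), while in 2MUT its change was -0.00 (SE 0.13, limma adjusted p = 0.99).

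**Figure D4:**
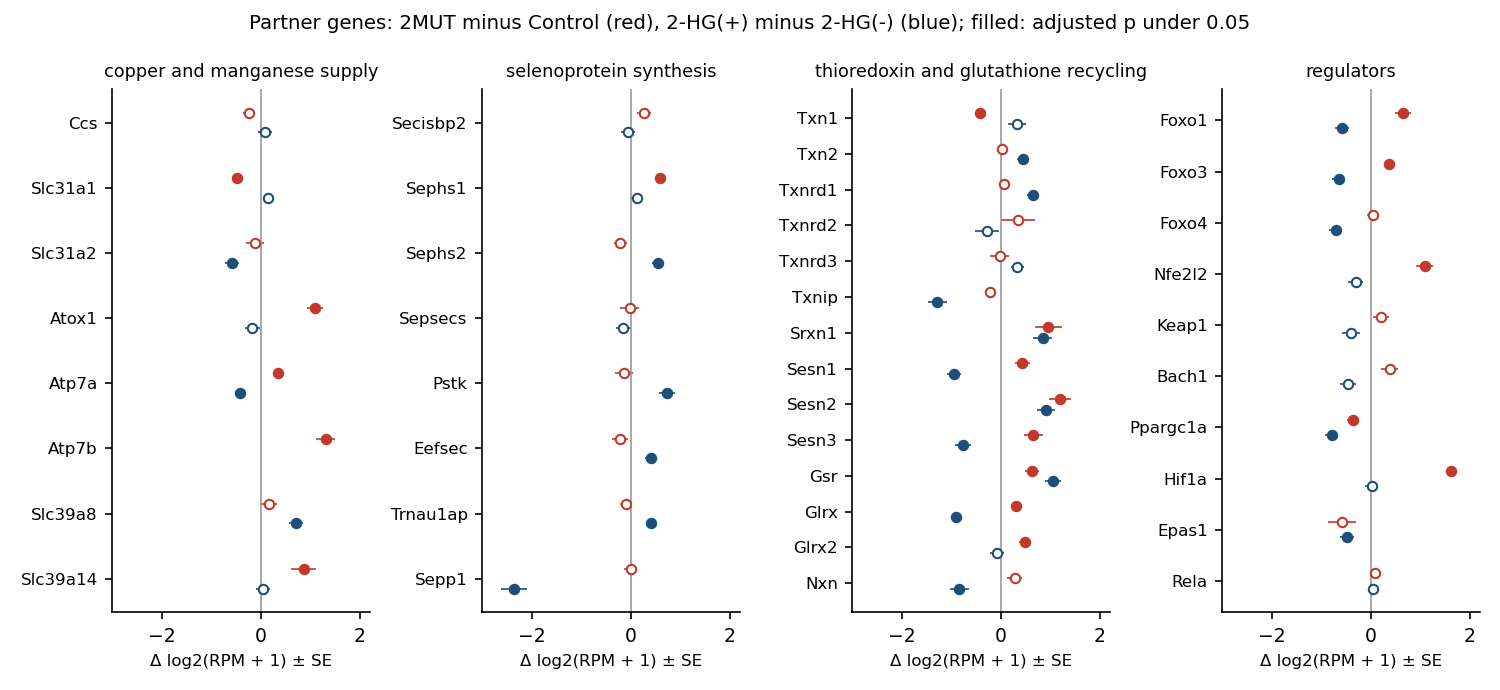
Change in log2(RPM + 1) with its standard error for tested genes of 4 lists, 2MUT minus Control in red and 2-HG(+) minus 2-HG(-) in blue, filled where the adjusted p was under 0.05. The lists are copper and manganese supply, selenoprotein synthesis, thioredoxin and glutathione recycling, and regulators. Among the genes of these 4 lists, Sepp1 (-2.36) and Txnip (-1.28) lie farthest to the left, both with 2-HG. Hif1a (1.62) and Atp7b (1.31) lie farthest to the right, both in 2MUT.

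Peroxins import catalase into peroxisomes. Of 13 genes, 2 were higher and 1 lower in 2MUT (median 0.14) and 0 were higher and 1 lower with 2-HG (median 0.01), both below the 33.8% and 32.8% of all genes that passed. At an unadjusted p under 0.05, by edgeR and by DESeq2, 2 were higher with 2-HG instead of 0 by limma, Pex2 and Pex14 by edgeR and DESeq2. Pex7, an import receptor of peroxisomes, rose by 0.96 in 2MUT (SE 0.12, limma adjusted p = 1.9e-04). Any link of this rise to catalase was not tested. The fall of Pex16 in 2MUT (-0.69) was lost without 2MUT replicate 1 (-0.59, limma adjusted p = 0.052), and that of Pex6 with 2-HG (-0.33) was lost without 2-HG(-) replicate 1 (-0.34), 2-HG(-) replicate 3 (-0.29), 2-HG(+) replicate 1 (-0.32) or 2-HG(+) replicate 2 (-0.29). Pex14 was at 112, 97.6 and 5.47 RPM in Control, so Control replicate 3 was far below the others, and 0.98 with all libraries (limma adjusted p = 0.38) became -0.36 without Control replicate 3 (limma adjusted p = 0.033). With all libraries but no filter on low genes, the 0.98 passed (limma adjusted p = 1.2e-08). Pex19 did not pass with all libraries but did without that one (0.39, limma adjusted p = 0.043).

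Of 21 genes whose products make superoxide or hydrogen peroxide or help to do so, 9 were tested in each comparison, with 3 higher and 3 lower in 2MUT (median -0.02) and 1 higher and 2 lower with 2-HG (median -0.14), the latter near the 32.8% of all genes that passed with 2-HG (33.8% in 2MUT). Ero1l, the oxidase of disulfide bond formation in the endoplasmic reticulum, rose in 2MUT (0.81, limma adjusted p = 0.0017) and with 2-HG, from 161, 137 and 178 RPM to 507, 426 and 457 RPM (1.55, SE 0.12, limma adjusted p = 1.9e-05). Xdh, xanthine dehydrogenase, fell in both (-0.72, limma adjusted p = 0.0014, and -0.71, limma adjusted p = 4.4e-04). Aox1, aldehyde oxidase, rose in 2MUT (1.16, limma adjusted p = 0.0059) and fell with 2-HG (-1.94, limma adjusted p = 2.3e-05). Duoxa1, a partner of dual oxidases, rose in 2MUT from 0.444, 1.14 and 0.684 RPM to 4.02, 3.37 and 4.4 RPM (limma adjusted p = 9.0e-04). Its mean was 0.756 RPM in Control and 3.93 in 2MUT, so it passed the filter of 1 RPM only through 2MUT. Its call and its place in the count are therefore no support for a rise. Maoa, monoamine oxidase A, fell in 2MUT (-0.53, limma adjusted p = 0.0058). The fall of Cyba (-0.43), a subunit of NADPH oxidases, was lost without 2MUT replicate 3 (-0.36, limma adjusted p = 0.055). In the unmoderated test the 2MUT calls of Ero1l (adjusted p = 0.064), Xdh (0.051), Aox1 (0.075) and Maoa (0.068) were lost too.

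Transcription factors and cofactors known to act on these enzymes were counted last, with 10 of 11 tested. In 2MUT 4 were higher and 1 lower (median 0.28), and with 2-HG 0 were higher and 5 lower (median -0.48, against -0.02 over all genes). Over all genes, 16.5% were higher and 17.3% lower in 2MUT, and 16.1% and 16.7% with 2-HG. Nfe2l2, which encodes the oxidative stress factor NRF2, rose in 2MUT from 76.5, 85.2 and 127 RPM to 179, 194 and 236 RPM (1.09, SE 0.17, limma adjusted p = 7.4e-04), a call that was lost in the unmoderated test (adjusted p = 0.055). Hif1a, the hypoxia factor subunit, rose from 83, 84.3 and 76.6 RPM to 267, 232 and 256 RPM (1.62, SE 0.10, limma adjusted p = 1.3e-06). Neither passed with 2-HG (-0.31, adjusted p = 0.17, and 0.02, adjusted p = 0.94, limma).

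FOXO factors are known activators of Sod2 and Cat. With 2-HG, Foxo3 fell by 0.65 (limma adjusted p = 0.0047) and Foxo4 by 0.71 (limma adjusted p = 0.0028), and so did Ppargc1a, a coactivator of mitochondrial genes (-0.79, limma adjusted p = 0.0017). The call of Foxo3 was lost without a filter (adjusted p = 0.076) and in the unmoderated test (adjusted p = 0.059). The fall of Foxo1 (-0.59) was lost without 2-HG(+) replicate 2 (-0.50, limma adjusted p = 0.05), and Epas1 (-0.48), at under 2 RPM in every library, passed when 2-HG(+) replicate 3 was left out but not when any of the other 5 libraries was (-0.50 to -0.46). Epas1 averaged 1.71 RPM in 2-HG(-) and 0.935 in 2-HG(+), so it passed the filter of 1 RPM only through 2-HG(-). Its place among the 5 lower is therefore no support for a fall. For rises of this list with 2-HG, the count was also 0 at an unadjusted p under 0.05 and by edgeR and DESeq2. In 2MUT, Foxo1 (0.65) and Foxo3 (0.36) were higher but not without 2MUT replicate 3 (0.55 and 0.31), and Ppargc1a (-0.37) was lower but not without Control replicate 2 (-0.34) or 2MUT replicate 2 (-0.30). Any part of these genes in the changes of the enzymes was not tested.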

How the data were processed

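The 12 MEF libraries form 4 groups of 3 by their labels, and 0 columns were left without a sample. The authors used TMAP for alignment and the AmpliSeqRNA plug-in for counting reads, and deposited 1 table of RPM per experiment. The deposited RPM had no further normalization: whole reads were recovered, with 100.0% of values under 10 RPM within 0.1 of a whole read. Depth limits precision only for genes of a few reads. The genes and the lists of partner genes were chosen with earlier results of these data known.

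limma 3.58.1 in R 4.3.3 was run within each table on log2(RPM + 1), fitting a trend of variance on level, for genes that averaged 1 RPM or more over its 6 libraries, with a Benjamini-Hochberg adjusted p-value under 0.05 as threshold. A fold change on this scale understates the change of low genes. The difference of the changes was a contrast over 12 libraries, for genes tested in both tables without names turned into dates. Genes named are the 10 enzymes, Idh2, list members that passed in either comparison, listed genes under the filter, and the 5 nearest to Sod3 (Gpx3 was not tested). Others are said to be chosen after their values were seen or are given only where their lists or the alternatives turn on them.

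Alternatives were 0.1 RPM added, no filter, a filter at 10 RPM, other scalings, an unmoderated test as in the study, edgeR 4.0.16 (1818 genes higher and 1947 lower in 2MUT, 1794 and 1752 with 2-HG) and DESeq2 1.42.0 on whole reads, a block for the replicate number, and leaving out 1 library at a time. Some values of the partner lists and some sequences are not reported here. Coordinates and coding bases come from GENCODE M21 on GRCm38 and promoters from RefSeq. Positions of the AmpliSeq targets, and whether counting used strand, are not given in the sources used here. pandas 2.3.3, scipy 1.17.1 and matplotlib 3.10.9 were used for tables, intervals and plots.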

Additional observations from a re-analysis of the deposited data

Results flagged for a closer look

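The change in 2MUT and the change with 2-HG differed by limma's contrast for 5 of the 7 enzymes tested. The change in 2MUT minus that with 2-HG was 5.70 for Sod3, 1.64 for Sod2 and 0.83 for Gpx1, which were higher in 2MUT and lower with 2-HG. It was -1.13 for Prdx6, which went the other way, and -0.75 for Prdx2, which was lower in 2MUT and whose groups overlapped in the 2-HG experiment. All values are differences in log2(RPM + 1). The 2 experiments also differ in cells, in duration and in the table their values come from, and these cannot be told apart.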

How the results depend on the processing

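Sod2 and Sod3 in both comparisons, Prdx2 in 2MUT and Prdx6 with 2-HG kept their call in all 15 alternatives, and no alternative turned the direction of an enzyme that passed. Of 329 values of the enzymes, 315 stayed on the same side of the threshold, 10 lost and 4 gained a call. Of 2169 values of other named genes, 112 lost and 30 gained a call and 1 was reversed, Pex14 in 2MUT, which ranged from -0.36 without Control replicate 3 to 1.70 without Control replicate 1. The unmoderated test gave 1021 genes higher and 1223 lower in 2MUT, of the enzymes 1 lower, and 1098 and 1139 genes with 2-HG. Without a filter these were 941 and 1110 with 2-HG. With each library left out, genes higher in 2MUT numbered 1271 to 1926 and lower 1484 to 1880 (enzymes 2 to 4 and 1 to 2). With 2-HG they were 1146 to 1745 and 1176 to 1580 (enzymes 1 and 2 to 3), and for the difference of the changes 1610 to 1972 and 1609 to 1875 (enzymes 3 and 2 to 3). Gpx1 did not pass in the unmoderated test (adjusted p = 0.078 in 2MUT and 0.11 with 2-HG) or, with 2-HG, without a filter (0.17), nor did Prdx6 in 2MUT in the unmoderated test (0.052). Of 480 counts over the lists, 429 stayed within 1.5 times the count given, and 51 did not.

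Libraries with the same replicate number did not deviate together (correlations of 0.071, 0.029 and 0.032 in the 2MUT experiment and of -0.457, -0.158 and 0.057 in the 2-HG experiment). In the 2-HG experiment some libraries with different numbers did, 2-HG(-) replicate 2 with 2-HG(+) replicate 1 (0.48) and 2-HG(-) replicate 1 with 2-HG(+) replicate 3 (0.413). The other pairs there were at -0.457 to 0.133. A block on the replicate number does not take up such a pairing, and its source is not known. With the replicate number as a block, 1911 genes were higher and 1987 lower in 2MUT, and 1217 and 1286 with 2-HG. Of the enzymes 3 and 2, and 1 and 2, passed, and Gpx1 with 2-HG did not (adjusted p = 0.062). For the difference of the changes, 1694 and 1651 genes passed.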
